A study of Mus musculus with 4 samples.

Results

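Oxidative phosphorylation genes were followed in thymospheres, the free-floating cell aggregates that dissociated thymus forms in dishes to which cells cannot attach. The set held the nuclear genes for subunits of respiratory complexes I to V together with the assembly factors of complex I that carry the same name stem, and was chosen by symbol alone (names starting with Nduf followed by a, b, c, s or v, the genes Sdha to Sdhd, and names starting with Uqcr, Cox4 to Cox8 or Atp5). The rule found 93 genes among the 21154 genes with a matched probe. These were 38 genes of complex I, 8 complex I assembly factors, 4 genes of complex II, 8 of complex III, 18 of complex IV and 17 of complex V, read by 124 probes. Subunits encoded in mitochondrial DNA are outside the rule and were not analysed here.

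Spheres came from C57Bl6/N mice without any transgene or mutation named in the labels. Adult spheres were grown from the thymus of animals aged 5 to 6 weeks, and embryonic spheres from thymus at embryonic day 14.5. Both kinds shared one culture in ultra low attachment plates with B27 supplement, hydrocortisone, insulin, EGF and bFGF, with new medium on day 5 and collection on day 7. Each group had 2 samples, each on its own 1-colour Agilent array of a single slide, loaded with RNA labelled from 25 ng. The labels name biological and technical replication without saying which arrays are which, so a p-value here speaks only of how far these samples spread, and that spread may be technical.

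The respiratory chain of the inner mitochondrial membrane passes electrons from NADH (complex I) and succinate (complex II) through coenzyme Q, complex III and cytochrome c to oxygen at complex IV, and complexes I, III and IV pump protons as they do so. Complex V, the ATP synthase, lets the protons flow back and makes ATP in its F1 head. Most of these proteins are coded by nuclear genes active in nearly all cells, while several small subunits of complex IV exist as pairs of a general form and a form typical of muscle, lung or testis.

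Of the spots on an array, between 35.7% (embryonic array 2) and 71.6% (adult array 1) were well above background, and none was saturated. The 75th percentile of signal, by which each array was scaled, came to 132 on adult array 1, 66.0 on adult array 2, 126 on embryonic array 1 and 61.5 on embryonic array 2, so the second array of each group was the dimmer one. In the limma fit over 13667 genes, 36.1% were called higher and 17.5% lower in embryonic spheres (adjusted p under 0.05), with a median log2 difference of 0.79. That median depended on the scaling and lay between -0.18 and 1.98 over the scalings tried, so the differences below are set beside it. Centring each array on the tested genes left 7.62% called higher and 20.3% lower. Of 11 thymic epithelial markers, 6 cleared background on both arrays of adult spheres and 8 on both of embryonic spheres. Of the 8 tested, 6 were called higher in embryonic spheres and 0 lower, with a median log2 difference of 2.46. Pax9 and Foxn1, both called, were tested only because embryonic spheres cleared background, so their higher calls were likely from the start. The summed signal of the 11 markers in units of the 75th percentile was 51.1 and 31.5 in adult and 154 and 268 in embryonic spheres. Aire, Psmb11 and Ly75 were well above background on adult array 1 only, so they were tested in neither direction. The part of the shift in epithelial markers in the members' values was not tested. All 7 fibroblast markers and all 5 macrophage markers cleared background on all 4 arrays. All 5 endothelial markers did so in adult spheres and 1 of them in embryonic spheres. Haematopoietic markers reached that level on both arrays of a group in 2 of 6 cases, for adult as for embryonic spheres. In such bulk samples, fewer cells of a type and less RNA per cell cannot be told apart.

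Promoter sequence is shown first for 4 genes, because one pair of complex IV subunits, Cox6b1 and Cox6b2, gave contrasting values and because Sdha and Cox6a1 hold the NRF1 motif counted below. Each is the 150 bases before the annotated start, taken from RefSeq on GRCm38.p6, 5′ to 3′ on the gene's own strand. Capitals mark matches on either strand to the NRF1 motif (GCGCA, any base, GCGC) or the ETS motif CCGGAAG. The stretches lie at chr13:74350241-74350390 for Sdha, chr5:115348959-115349108 for Cox6a1, chr7:30626115-30626264 for Cox6b1 and chr7:4753095-4753244 for Cox6b2, all on the minus strand.
Sdha: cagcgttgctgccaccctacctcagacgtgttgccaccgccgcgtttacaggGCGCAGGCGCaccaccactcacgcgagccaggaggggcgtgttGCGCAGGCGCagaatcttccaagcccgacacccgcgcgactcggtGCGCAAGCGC
Cox6a1: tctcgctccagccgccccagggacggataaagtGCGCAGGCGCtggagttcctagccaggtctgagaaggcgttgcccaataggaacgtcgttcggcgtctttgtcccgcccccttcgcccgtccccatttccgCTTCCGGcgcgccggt
Cox6b1: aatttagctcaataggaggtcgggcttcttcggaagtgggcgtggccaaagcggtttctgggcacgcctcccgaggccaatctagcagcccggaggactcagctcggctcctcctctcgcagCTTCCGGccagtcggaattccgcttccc
Cox6b2: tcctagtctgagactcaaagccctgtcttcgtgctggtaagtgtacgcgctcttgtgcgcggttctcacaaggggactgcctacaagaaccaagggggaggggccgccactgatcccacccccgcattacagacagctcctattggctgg

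A promoter entry, running from 250 bases before to 50 after the start, was found for 74 of the tested members. The NRF1 motif, bound by a nuclear respiratory factor known to act on many respiratory genes, was present in 19 of them (25.7%), against 4.60% of all promoters of the same length and 11.6% of those of the fully measured genes, meaning genes well above background on every array. The ETS motif, read by GABP among others, was also found in 19 (25.7%), against 8.86% of all promoters and 20.5% of those of the fully measured genes. The CCAAT box was in 33 (44.6%), against 37.4% of all promoters and 42.0% of those of the fully measured genes, so close to the latter. Members with and without the NRF1 motif had median log2 differences between embryonic and adult spheres of 0.88 and 0.89. From embryonic array 1 to array 2 their medians changed by -1.09 and -1.37. A match is only a match of letters.

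Of the 93 genes, 90 were tested, and all 90 were fully measured. Embryonic spheres had higher signal for 18 of them (20%) and lower signal for 0 (limma, adjusted p under 0.05). Over all genes 36.1% were called higher, and over the 9626 fully measured genes 43.7% were called higher and 2.36% lower, so the members' share lay below both. Fitting only those 9626 genes gave 28 members higher (31.1%) and 0 lower, against 56% and 3.42% of the genes in that fit. At an unadjusted p under 0.05 the fit called 26 members (28.9%), 0 of them lower, against 62.9% of all genes. The members' median log2 difference was 0.88, against 0.79 for all genes and 0.97 for the fully measured ones, and turned to -0.09 when arrays were scaled on the fully measured genes. The 18 calls rest on the scaling: after centring on the tested genes only Cox6a2 and Cox6b2 were called.

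The 2 embryonic arrays differed for these genes far more than for the fully measured genes as a whole. On embryonic array 1 the median member lay 1.42 log2 units (2.68-fold) above the adult mean, against 1.03 for all fully measured genes. On embryonic array 2 it lay 0.29 above (1.22-fold), against 0.93. Embryonic array 1 was above both adult arrays for 89 of the 90 members, where 83.9% of all those genes were, and embryonic array 2 for 51, where 79.8% were. Both embryonic arrays were above both adult arrays for 50 members (55.6%, against 75.4%) and both were below for 0 (against 6.6%).

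The second embryonic array was more than 1 log2 unit below the first for 57 of 90 members (63.3%), against 7.23% of all fully measured genes. This drop was not particular to the members. It was found in 59.8% of 87 cytosolic and 31.6% of 76 mitochondrial ribosomal protein genes. The median member changed by -1.18 from the first to the second, against 0.02 for those genes. With quantile normalization this median was -0.76, with the deposited value table -0.73 and with normexp background correction -1.50, each against a median of the fully measured genes between -0.16 and 0.08. Without embryonic array 2, 80 of the 90 were called higher, with 36.9% of all genes, and without embryonic array 1, 11 were, with 35.1%. With either adult array left out 0 members and 0% of all genes were called higher, so those fits say nothing about the members. The arrays are 2, so the gap has no replicate check of its own. Embryonic array 2 also had the lower 75th percentile of signal and fewer spots well above background, and their part in the gap was not tested.

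**Figure D1:**
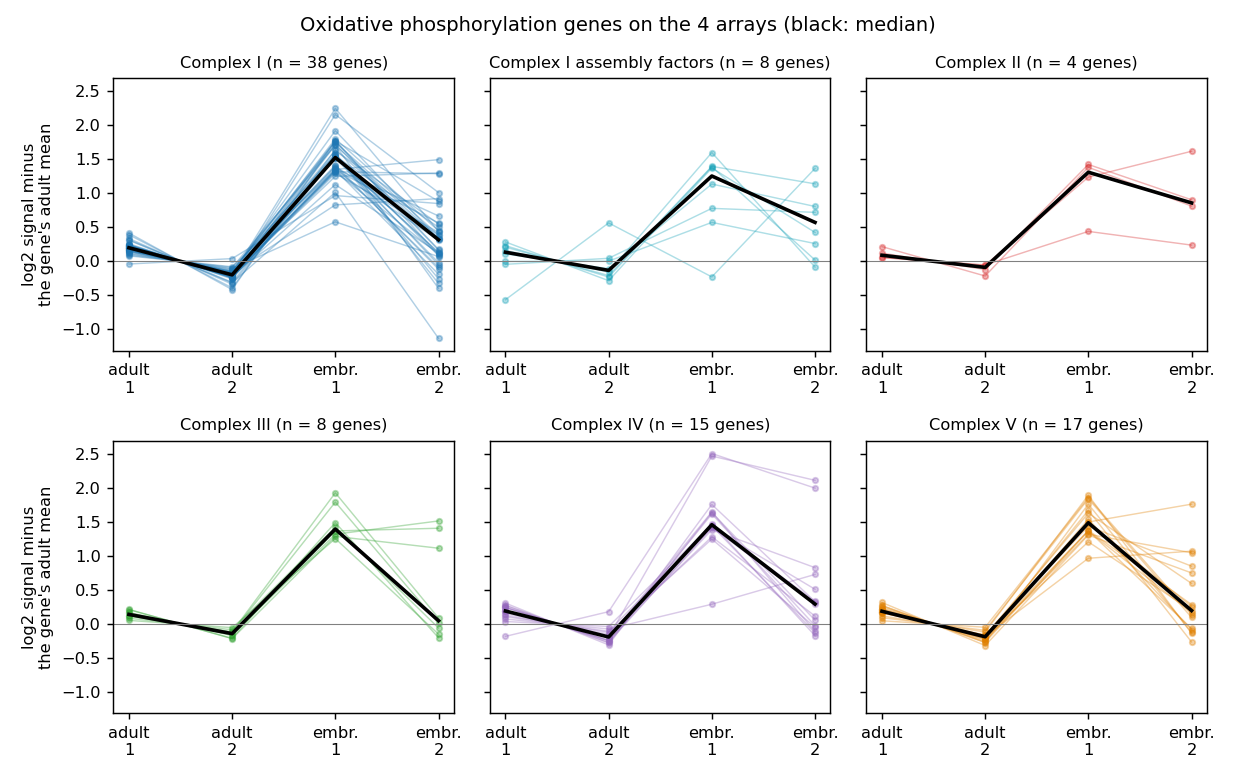
Log2 signal minus the gene's own adult mean (y axis) on the 4 arrays (x axis) for each of the 90 tested members, in 1 panel for each complex and for the assembly factors; each thin line joins the values of a gene, with no order implied between arrays, and the black line is the panel's median. Most lines peak on embryonic array 1, where 89 of 90 genes lie above both adult arrays, and drop on embryonic array 2, with a median change of -1.36 in complex I and -0.36 in complex II.

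Complex I, the NADH dehydrogenase, was split by the roles of its subunits. The 7 nuclear core subunits carry the flavin, the iron-sulphur clusters and the site that hands electrons to coenzyme Q. For all 7 both embryonic arrays lay above both adult arrays, with a median log2 difference of 1.27, and 3 of 7 passed the test. Among all fully measured genes 75.4% had that order of arrays and 43.7% were called higher, so neither count sets the core subunits apart. In the lists of 4 values that follow, log2 signals relative to the array's 75th percentile stand in the order adult array 1, adult array 2, embryonic array 1 and embryonic array 2. Ndufs1, the largest core subunit, read 2.50, 2.34, 3.77 and 3.91, a rise of 1.42 (SE 0.30, limma adjusted p = 0.016). Ndufv1, the subunit that binds NADH, read 3.34, 2.94, 4.46 and 4.43, a rise of 1.30 (SE 0.32, limma adjusted p = 0.023). In both genes the embryonic arrays differed by at most 0.14 log2 units and lay clear of the adult arrays.

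Core subunits that did not pass, which carry iron-sulphur clusters or hold them in place, were higher on embryonic array 1 than on array 2. Ndufs3 read 4.19, 3.73, 5.30 and 4.53, and Ndufs7 read 4.53, 4.06, 5.66 and 4.96. Ndufs8 read 1.88, 1.05, 3.23 and 2.35, and Ndufv2 read 3.86, 3.41, 4.93 and 4.06. Their groups did not overlap, but the limma adjusted p lay between 0.059 for Ndufs8 and 0.13 for Ndufv2.

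The 31 other subunits of complex I, most of them small proteins wrapped round the core, looked different. Compared with the core subunits, most of them also had brighter probes. Their median was 1.56 log2 units above the adult mean on embryonic array 1 and 0.13 on embryonic array 2, and 28 of the 31 dropped by more than 1 log2 unit between those arrays, against 0 of the 7 core subunits. Only Ndufa6 and Ndufa9 passed the test. Ndufa6 read 3.53, 3.06, 5.45 and 4.30, a rise of 1.58 (SE 0.48, limma adjusted p = 0.038), the highest in complex I. Ndufa9, which sits near the coenzyme Q site, rose by 0.91 (SE 0.30, limma adjusted p = 0.049), and this call was close to the threshold. At the other end stood Ndufab1, the mitochondrial acyl carrier protein, at 0.69, 0.061, 1.39 and -0.75. Its embryonic arrays enclosed the adult ones, and its mean difference of -0.06 (SE 0.74) was the lowest of all members. Ndufa4, named after complex I but known as a subunit of complex IV, read 3.93, 3.52, 5.97 and 4.17. Its hypoxia-linked relative Ndufa4l2 read 1.48, 1.26, 1.95 and 1.44, with overlapping groups (limma adjusted p = 0.43).

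Assembly factors of complex I, which build the enzyme and are not part of it, included 2 of 8 that passed the test. Ndufaf7, a mitochondrial methyltransferase, read 0.72, 0.30, 1.90 and 1.65, a rise of 1.27 (SE 0.33, limma adjusted p = 0.026). Ndufaf4 read 1.00, 0.78, 2.03 and 1.70, a rise of 0.97 (SE 0.32, limma adjusted p = 0.049). Both had clear gaps between the groups. The lowest differences in this set were those of Ndufaf6, at -0.45, -0.45, 0.12 and -0.19, and Ndufaf5, at -0.37, 0.75, -0.039 and 1.55. Ndufaf5 was the one member whose second array was more than 1 log2 unit above the first in embryonic spheres, and it was also higher on the second adult array.

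Complex II, the succinate dehydrogenase that the respiratory chain shares with the tricarboxylic acid cycle, had a smaller drop than the members as a whole. Its median change between the embryonic arrays was -0.36, against -1.18 for all members and 0.02 for the fully measured genes. All 4 genes had both embryonic arrays above both adult arrays, as 75.4% of the fully measured genes did, and the change from the first embryonic array to the second ran from -0.57 to 0.38. Sdha, the flavoprotein that oxidises succinate, read 2.24, 2.12, 3.41 and 3.79, a rise of 1.43 (SE 0.32, limma adjusted p = 0.018). Sdhc, a membrane anchor, read 2.59, 2.35, 3.89 and 3.38, a rise of 1.16 (SE 0.34, limma adjusted p = 0.036). Sdhb, the iron-sulphur subunit, read 4.54, 4.11, 5.70 and 5.13 and stood just outside the threshold (limma adjusted p = 0.0504). Sdhd, the second anchor, read 4.04, 3.93, 4.42 and 4.22, a difference of 0.34 (SE 0.30) below the median of all genes.

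Complex III held both patterns at once. Uqcrc1 and Uqcrc2, the large core proteins on its matrix side, and Uqcrfs1, the Rieske iron-sulphur protein, were the 3 of 8 that passed (37.5%, against 43.7% of the fully measured genes). Uqcrc1 read 2.34, 2.00, 3.54 and 3.58, a rise of 1.39 (SE 0.31, limma adjusted p = 0.019). Uqcrc2 read 2.92, 2.59, 4.07 and 4.27, a rise of 1.42 (SE 0.32, limma adjusted p = 0.018). Uqcrfs1 rose by 1.20 (SE 0.33, limma adjusted p = 0.029). The other 5 genes code for small subunits, and for all 5 the second embryonic array fell back by more than 1 log2 unit. Uqcrb, which binds at a coenzyme Q site, read 5.23, 5.12, 6.43 and 5.03, and Uqcrq read 5.98, 5.56, 7.26 and 5.57. In both, embryonic array 1 was the highest and embryonic array 2 lay at or below an adult array (limma adjusted p = 0.38 for each).

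**Figure D2:**
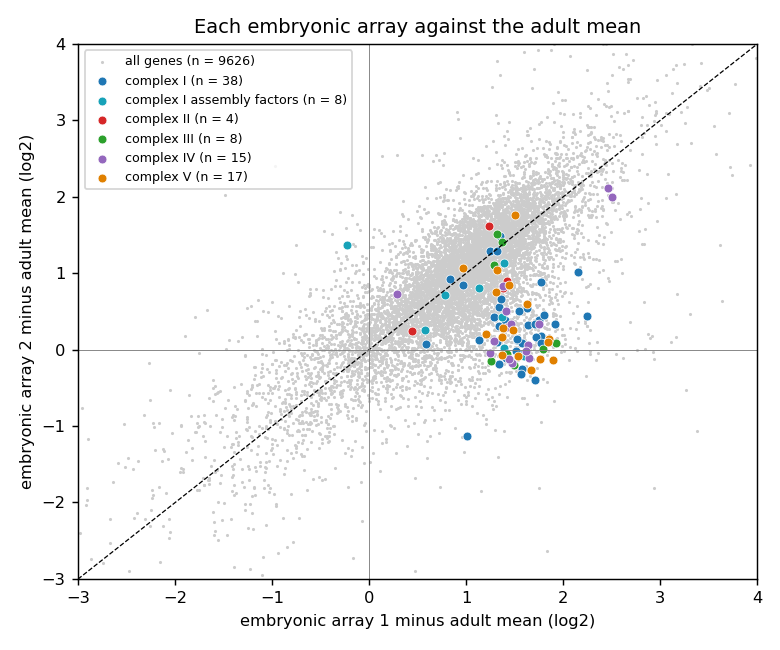
Log2 difference from the adult mean on embryonic array 1 (x axis) and embryonic array 2 (y axis), with members coloured by complex over all fully measured genes in grey and the line of equal values dashed; 72 genes fall outside the axes. Ndufs1, Sdha, Uqcrc2 and Atp5a1 sit somewhat above the diagonal, with changes of 0.14 to 0.38 from the first array to the second, while most others lie to the right of it, at a median of 1.42 on the first array and 0.29 on the second.

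Complex IV, cytochrome c oxidase, gave the largest rises of the whole set, in 2 subunit forms that are restricted in adult tissues. Cox6b2, known as the testis form of a subunit facing the intermembrane space, read 0.044, -0.34, 2.32 and 1.96, a rise of 2.29 (SE 0.34, limma adjusted p = 0.0091). Its general form Cox6b1 read 3.30, 2.68, 4.74 and 3.32, where the lower embryonic array barely cleared the higher adult one (limma adjusted p = 0.15). Cox6a2, known as the heart and skeletal muscle form, read -0.90, -0.54, 1.78 and 1.27, a rise of 2.25 (SE 0.35, limma adjusted p = 0.0097). For its general form Cox6a1 the values were 7.55, 7.24, 8.68 and 7.51, and the groups overlapped (limma adjusted p = 0.24). Cox6a2 and Cox6b2 were the only members that passed with the arrays centred on the tested genes, with rises of 1.59 (SE 0.36, limma adjusted p = 0.030) and 1.63 (SE 0.30, limma adjusted p = 0.018). They were the 2 called members of the 15 tested in complex IV.

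No tested marker of striated muscle was called higher with Cox6a2. Of 10 such markers 6 cleared background on both arrays of adult spheres and 2 on both of embryonic spheres. Of the 6 tested, 0 were called higher and 5 lower, where 17.5% of all genes were called lower. Mylpf, Tnnt3 and Ttn were dim on both embryonic arrays and Tnnc2 on embryonic array 2. These genes were tested only because adult spheres cleared background, so their lower calls were likely from the start. The summed signal of the 10 markers, in units of the array's 75th percentile, came to 6.97 and 8.24 for adult and to 2.65 and 1.78 for embryonic spheres. Ckm, the muscle creatine kinase, was not well above background on any array, and the part of muscle cells in the Cox6a2 value was not tested.

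The remaining pairs showed no such contrast. Cox4i2, a form known from lung, read -0.16, -0.31, 0.058 and 0.50, and the general Cox4i1 read 6.07, 5.53, 7.21 and 6.31 (limma adjusted p = 0.22 and 0.11). Cox7a1, the muscle form, read -0.18, -0.25, 1.24 and 0.12, and the general Cox7a2 read 4.99, 4.43, 6.35 and 4.77. Cox7a2l, a relative that helps join complexes III and IV into supercomplexes, read 5.26, 4.78, 6.40 and 5.85 and missed the threshold narrowly (limma adjusted p = 0.0507). Neither Cox7b, at 5.85, 5.64, 7.18 and 5.61, nor Cox8a, at 7.60, 7.35, 8.72 and 7.43, kept its groups apart, since in both only embryonic array 1 was high. Their restricted relatives were the 3 untested members. Cox7b2 was not well above background on any array. Cox8b passed only on adult array 2, at -1.60, and on embryonic array 1, at -0.74. Cox8c passed only on adult array 1, at -1.25, its spot on adult array 2 being marked as an outlier.

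**Figure D3:**
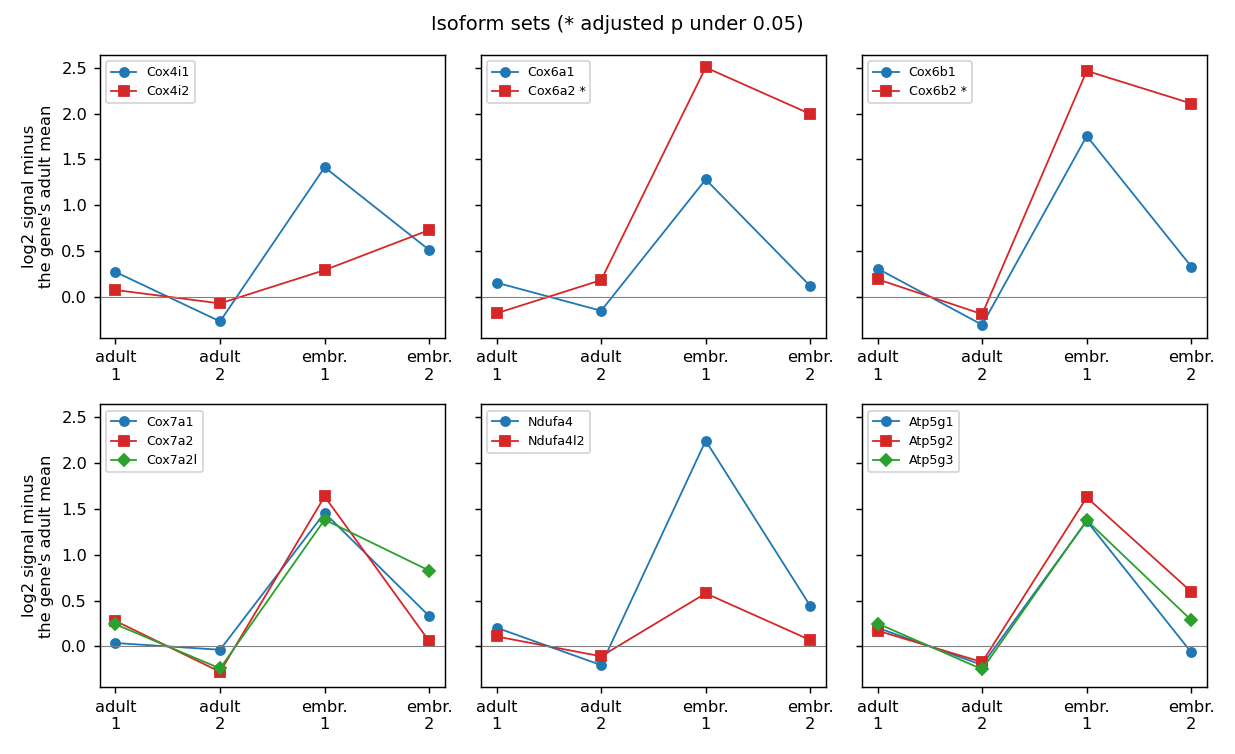
Log2 signal minus the gene's own adult mean (y axis) on the 4 arrays (x axis) for the genes of 6 sets of related subunit forms; lines join the values of a gene, with no order implied between arrays, and an asterisk marks an adjusted p under 0.05. Cox6a2 and Cox6b2 stay at 2.00 and 2.11 on embryonic array 2, where Cox6a1 and Cox6b1 are at 0.12 and 0.33.

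Complex V divided along its structure as well. The F1 head, where ATP is made, has 5 genes, and 4 of them passed, while 0 of the 12 others did (36.1% of all genes were called higher). Atp5a1, the alpha subunit, read 4.32, 4.002, 5.66 and 5.92, a rise of 1.63 (SE 0.32, limma adjusted p = 0.014). Atp5c1, the central stalk, read 4.89, 4.44, 5.98 and 5.71, a rise of 1.18 (SE 0.34, limma adjusted p = 0.033). The catalytic beta subunit Atp5b rose by 1.02 (SE 0.32, limma adjusted p = 0.042) and the delta subunit Atp5d by 1.14 (SE 0.36, limma adjusted p = 0.043). Embryonic arrays lay clear of adult arrays in all 4. Atp5e, the small epsilon subunit of the head, was the exception, at 6.13, 6.03, 7.93 and 6.22 (limma adjusted p = 0.19).

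Among the 12 other genes of complex V, 11 dropped by more than 1 log2 unit from the first embryonic array to the second, against 1 of the 5 head genes. The proton-carrying c ring is made from 3 genes for one mature protein. Atp5g1 read 5.74, 5.33, 6.90 and 5.47, with overlapping groups, and had the lowest difference of complex V, 0.65 (SE 0.54). Atp5g2 read 5.84, 5.50, 7.30 and 6.27, and Atp5g3 read 6.10, 5.60, 7.23 and 6.14 (limma adjusted p = 0.079 and 0.17). Atp5o, in the stalk that holds the head in place, read 4.17, 3.80, 5.19 and 4.18, with embryonic array 2 only just above adult array 1.

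Set side by side, the complexes differed little in their mean differences and clearly in the gap between the embryonic arrays. Median log2 differences were 0.90 for complex I, 1.13 for complex II, 0.95 for complex III, 0.85 for complex IV and 0.88 for complex V, against 0.79 for all genes and 0.97 for the fully measured ones. Only complex II lay above the latter. Shares called were 5 of 38, 2 of 4, 3 of 8, 2 of 15 and 4 of 17, against 43.7% of the fully measured genes. Complexes I, III, IV and V had lower shares than that background, complex III (37.5%) only slightly. From embryonic array 1 to array 2 the median member changed by -1.36, -0.36, -1.44, -1.16 and -1.20 in that order. The core of complex I (-0.70) and the F1 head (-0.27) changed less than the other subunits of the same complexes (-1.40 and -1.33). This order of core before other subunits also held with quantile normalization (-0.29 against -1.02 in complex I) and with the deposited value table (-0.37 against -0.97). These comparisons between subunits rest on 1 array against 1 array and have no test. Signal level was not matched in them. Core subunits of complex I and the large subunits of complex III had dimmer probes than most others of their complex. So did the F1 head genes Atp5a1, Atp5c1 and Atp5d, while the head genes Atp5b and Atp5e did not. Members with brighter probes had a deeper gap, at a median of -0.35 for mean log2 signals of 2 to 4 and -1.53 above 5. The part of signal level in the contrast between subunits was not tested. The 18 called members had a median change of -0.15 between the embryonic arrays and the 72 others one of -1.38, which enters the test itself through its standard error (median 0.32 and 0.54).

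**Figure D4:**
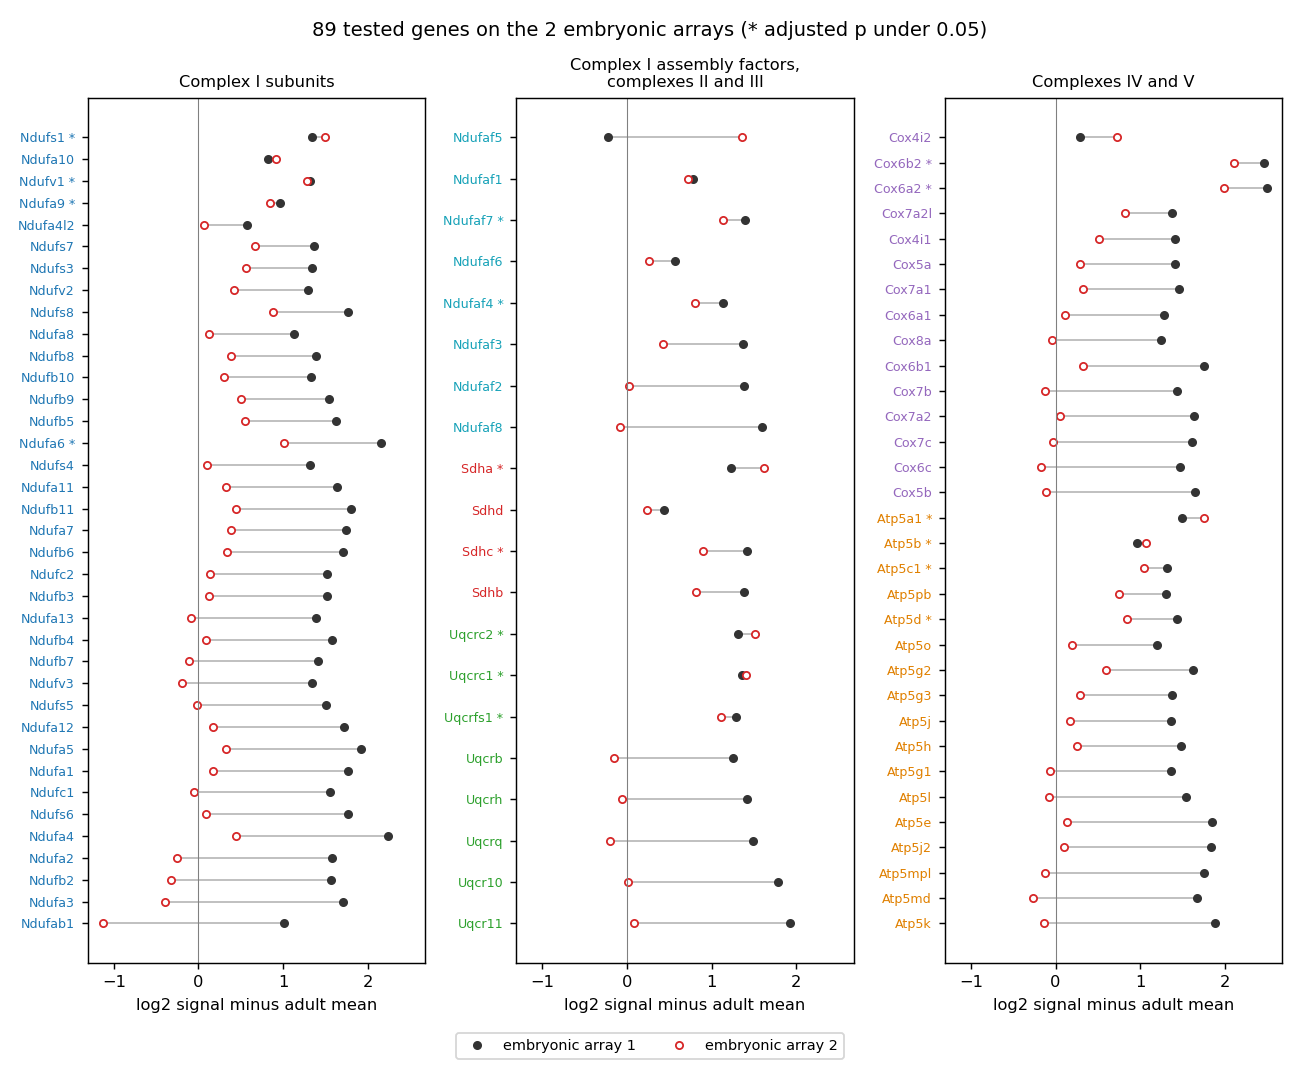
Log2 difference from the adult mean (x axis) of 89 of the tested genes (y axis, 1 row per gene, grouped by complex) on embryonic array 1 (filled points) and embryonic array 2 (open points), joined by a line; an asterisk marks an adjusted p under 0.05. Genes with asterisks have a median change of -0.15 from the first point to the second, while in 57 genes the second point lies more than 1 log2 unit to the left of the first.

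Fully measured probes of one gene gave like values. Of the members 20 had at least 2 fully measured probes, 46 probes in all, and every one of these genes had differences of one sign between embryonic and adult spheres. The change between embryonic arrays varied among probes of one gene by a median of 0.11 and at most 0.23 log2 units. The 5 probes of Atp5l, a small membrane subunit of complex V, gave values from -1.72 to -1.56, and the 3 probes of Uqcr10 in complex III values from -1.78 to -1.71. The 3 probes of Cox7a2l stayed between -0.58 and -0.43. Dimmer probes, marked as outliers on adult array 2, did not always match. A second probe of Ndufv3 had a mean difference of -0.07 and a change of -0.02 between the embryonic arrays, against 0.58 and -1.53 for the brighter one. A second probe of Ndufb5 had a mean difference of -0.02, against 1.09.

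The gap was deepest for genes whose probe had a high signal, which is not an amount of RNA that can be compared between genes, and members had it more than other genes at each level. Of genes with a mean log2 signal above 5, the 44 members had a median change of -1.53 from embryonic array 1 to array 2 and the 476 other genes one of -0.42. Between 4 and 5 the medians were -0.94 for 14 members and -0.13 for 404 other genes, and between 2 and 4 they were -0.35 for 18 members and 0.00 for 2159 other genes. At 2 or below they were -0.43 for 14 members and 0.06 for 6497 others. The cytosolic ribosomal protein genes, another group of high signal, had a median change of -1.16 over 87 genes. Of these, 9 were called higher (10.3%, against 43.7% of the fully measured genes).

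Genes that work beside the respiratory chain were described from lists. In the tricarboxylic acid cycle, which feeds it with NADH and succinate, 13 of 14 genes rose and 0 fell, against 36.1% and 17.5% of all genes, with a median difference of 1.37 and a median change of 0.11 between the embryonic arrays. The Sdh genes were not counted in this list. Idh2, the mitochondrial isocitrate dehydrogenase, read 2.07, 2.04, 4.49 and 4.51, a rise of 2.44 (SE 0.30, limma adjusted p = 0.0076). Cs, the citrate synthase, rose by 1.64 (SE 0.31, limma adjusted p = 0.013), and Suclg2, a succinyl-CoA ligase subunit, by 1.96 (SE 0.36, limma adjusted p = 0.013). After centring on the tested genes 2 of the 14 were called higher.

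Regulators of mitochondrial gene expression were called higher in 14 of 20 cases and lower in 1, against 36.1% and 17.5% of all genes. Ppargc1a, the coactivator PGC-1 alpha that drives respiratory genes, was not well above background on either adult array and had at least 5.47-fold higher signal in embryonic spheres (limma adjusted p = 0.0073). The bound sets the embryonic mean over the adult mean, with each adult array at no less than the lowest signal of any probe well above background there, and holds for this background correction and scaling only. With normexp the log2 difference was 0.92 and the call was lost (limma adjusted p = 0.052), and with the deposited value table it was 1.88. Yy1, a transcription factor, rose by 1.85 (SE 0.39, limma adjusted p = 0.015), and Tfb1m, a ribosomal RNA methyltransferase of mitochondria, by 1.82 (SE 0.42, limma adjusted p = 0.020), the latter not well above background on adult array 2. Esrrg, a nuclear receptor active in oxidative tissues, went the other way, at least 1.88-fold higher in adult spheres and dim on both embryonic arrays (limma adjusted p = 0.012). This call was lost with normexp (-0.73, limma adjusted p = 0.11). On adult array 2 Esrrg read -1.83, below the lowest signal of any probe well above background on embryonic array 2 (-1.75). Ppargc1a and Tfb1m were tested only because embryonic spheres cleared background, and Esrrg only because adult spheres did. The direction of their calls was thus likely from the start. After centring 1 of the 20 was called higher and 1 lower.

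Electron carriers and nucleotide exchange proteins rose in 6 of 16 cases and fell in 1, a share close to the 36.1% of all genes called higher. Etfdh, which brings electrons from fat oxidation to coenzyme Q, rose by 1.53 (SE 0.33), the cyclophilin Ppif by 1.55 (SE 0.33) and the outer membrane channel Vdac1 by 1.15 (SE 0.32), with limma adjusted p of 0.016, 0.016 and 0.030. Ucp1, the uncoupling protein of brown fat, was the one called lower, at least 1.48-fold higher in adult spheres and dim on both embryonic arrays (limma adjusted p = 0.014). That call was lost with normexp (-0.48, limma adjusted p = 0.20) and with the deposited value table (-0.59, limma adjusted p = 0.13). The lowest signal of any probe well above background on embryonic array 2 was -1.75. Ucp1 lay below that on both adult arrays (-1.83 and -1.95), so embryonic array 2 alone sets no such bound. Of the 7 fat cell markers, which include Ucp1, 5 cleared background on both arrays of adult spheres and 1 on both of embryonic spheres. Of the 5 tested, 4 were called lower and 0 higher, where 17.5% of all genes were called lower, with a median log2 difference of -1.74. Those 4 (Adipoq, Dio2, Ucp1 and Plin1) were dim on both embryonic arrays. They were tested only because adult spheres cleared background, so a lower call was likely from the start. The summed signal of the 7 markers was 12.6 and 9.09 in adult and 37.0 and 10.74 in embryonic spheres, nearly all of it from Fabp4, which read 3.23, 2.89, 5.20 and 3.33. Cidec was not well above background on any array, and their part in the Ucp1 value was not tested.

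Assembly factors outside the member set, of complex I as well as the other complexes and the chain in general, rose in 7 of 34 cases. Among them were Lrpprc, which steadies mitochondrial messenger RNA (1.72, SE 0.30, limma adjusted p = 0.012), Nubpl, which inserts iron-sulphur clusters into complex I (1.58, SE 0.41, limma adjusted p = 0.026), and Oxa1l, an insertase of the inner membrane (1.53, SE 0.32, limma adjusted p = 0.016). Genes of coenzyme Q synthesis rose in 2 of 11 cases, Coq2 by 1.31 (SE 0.36) and Coq6 by 1.07 (SE 0.30), with limma adjusted p of 0.029 and 0.032. Genes of the mitochondrial ribosome rose in 16 of 76 cases, led by Mrps27 (1.70, SE 0.35), Mrpl9 (1.59, SE 0.32) and Mrpl44 (1.53, SE 0.31), and their median change between the embryonic arrays was -0.73. None of these 3 lists had a member called lower, and in all 3 the share called higher was below the 36.1% of all genes. After centring, 1 assembly factor was called higher and 1 lower, and 0 genes of the other 2 lists were called.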

How the data were processed

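Messenger RNA of 4 thymosphere samples was measured on 1-colour arrays. The deposited scanner files hold intensity values per spot, extracted with Agilent Feature Extraction 10.7.3.1 per the file headers. The deposited value table, also intensity, served as an alternative, and the sources used here do not give its processing.

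Each processed signal was divided by its array's 75th percentile over non-control spots and taken to log2. Control spots and outlier spots were left out, 2756 of the latter on adult array 2 and 95 to 185 on the others. Spots of a probe were averaged, and a probe counted as well above background if at least 50% of its spots were. Of 55681 probes, 28026 (50.3%) were matched to a symbol through RefSeq accessions (GRCm38.p6). Probes that were so on both arrays of a group were tested, and the brightest probe stood for its gene, probes measured on all 4 arrays first. The fit used limma 3.58.1 (lmFit, eBayes) in R 4.3.3 over 13667 genes with Benjamini-Hochberg adjustment at 0.05, and was tested on simulated data. With 2 arrays against 2 an exact permutation test of one value cannot go below 0.333, so only the fit was used, and the number of arrays limits the precision.

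The members, the lists and the marker genes were chosen with earlier results of these data known. Values on every array are given for the 2 highest and 2 lowest differences of each complex, the core subunits of complex I and sets of related subunit forms, and up to 3 called genes per list and direction. One gene that this rule takes is not reported here. Uqcrfs1, Atp5e, Ndufa9, Atp5b, Atp5d, Atp5l and Uqcr10 were named beside these after their values were seen. Alternatives were normexp background correction (offset 50, on median signals because mean signals were not used here), quantile normalization, other centring, the deposited table, other filters on dim probes, other probe choices, an intensity trend, a robust prior, the replicate number as a block, and each array left out.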

Additional observations from a re-analysis of the deposited data

Results flagged for a closer look

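Spike-in control spots, which belong to no gene and entered no comparison, gave signal in one group only. Of the 350 such spots on each array, 308 were well above background on adult array 1 and 181 on adult array 2, against 1 and 0 on embryonic arrays 1 and 2. These spots were left out of every value given here.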

How the results depend on the processing

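The count of 18 members called higher changed by more than 1.5 times with the scaling and the filter. Beside the share of all genes called higher in the same fit (36.1% as reported), it was 9 with normexp (18.5%), 2 with quantile normalization (21.2%), 2 with the deposited value table (26.5%), 2 after centring on the tested genes (7.62%), 89 after centring on all probes (72.0%), 2 with no filter on dim probes (4.40%), 28 with a filter asking for all 4 arrays (56.0%), and 1 with the 75th percentile taken over the fully measured genes (3.20%), a setting chosen after seeing the data. Left-out arrays gave 0 to 80. The count was 11 without embryonic array 1 (35.1%) and 80 without embryonic array 2 (36.9%), where a lone array is assumed to vary like the other group. It was 0 without either adult array, where limma called 0% of all genes, and there 14 and 7 members (15.6% and 7.78%) had an unadjusted p under 0.05, against 47.2% and 40.4% of all genes. The count of members called lower was 0 in all these settings. With the replicate number as a block it was again 18 called higher, 15 of them among the 18, and Atp5b, Ndufa9 and Ndufaf4 were lost. The numbers do not pair the samples, since the labels tie no adult to an embryonic array and there are only 2 pairs, and the deviations of same-numbered arrays correlated at 0.169 over 9626 genes. The sign of single members' differences also rests on the scaling. Of the 90, 1 was below 0 as reported, 38 with quantile normalization, 41 with the deposited table, 18 after centring on the tested genes and 57 when the percentile was taken over the fully measured genes. Among the 18 called, Ndufa9 (-0.071) and Ndufaf4 (-0.0081) reversed in that last setting. The median of complex II minus that of all genes, 0.34, became -0.030 with quantile normalization, -0.13 with the deposited table, 0.79 with no filter and 0.16 with the filter on all 4 arrays, and ran from 0.15 to 0.47 with an array left out. That of complex III, 0.16, ran from -0.66 to 0.55 with an array left out. Those of complexes I, III, IV and V, 0.11, 0.16, 0.05 and 0.08, turned to -0.26, -0.26, -0.32 and -0.31 with quantile normalization, -0.28, -0.28, -0.30 and -0.33 with the deposited table and -0.07, -0.02, -0.12 and -0.09 with the filter on all 4 arrays. These last moves, of complexes I, III, IV and V, are within the spread between replicates, which is several times the medians themselves. For complex II that spread was only 0.087, smaller than its median of 0.34 and than its moves between the settings given. The cause of these changes was not tested. Dim signal limits Cox7b2, Cox8b and Cox8c, which could not be tested.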
